A study of Mus musculus with 8 samples.

Results

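The interferon response genes examined here are 36 genes chosen by symbol: transcription factors of interferon signalling, nucleic acid sensors, and the antiviral effectors that interferon induces. They were found by exact symbol among probe sets annotated to 1 gene, and 33 of the 36 were measured, out of 18820 genes in all. Ifi44, Parp9 and Igtp were not analysed here, Parp9 and Igtp because their probe sets carry several symbols. Irf1 had 2 probe sets and is represented by the brighter one. The members were followed in adipose tissue macrophages (ATMs) of wild-type male C57Bl/6 mice on 8 arrays, 4 of ATMs from obese mice fed a high-fat diet (HFD) and 4 of ATMs from lean mice fed a low-fat diet (LFD). Each of 4 experiments gave 1 array of either diet, and each array held RNA of ATMs pooled from several mice. Fat, which the labels name as lard, supplied 60% of the energy of the HFD in experiments 2 and 4, 45% in experiments 1 and 3, and 10% of that of every LFD. The diets lasted 16, 15, 16 and 10 weeks in experiments 1, 2, 3 and 4 by the labels, while the methods state a single duration. Fat content, duration and experiment cannot be told apart. ATMs were taken from epididymal fat by positive selection on magnetic beads for F4/80, a macrophage surface protein encoded by Adgre1. Levels are log2 values as deposited, and a log2 difference of 1 is a doubling.

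Interferons are cytokines, and those of type I are released when a cell detects viral or other misplaced nucleic acid. Type I interferons bind the receptor made of Ifnar1 and Ifnar2 and activate a complex that includes STAT2 and IRF9 and binds the interferon-stimulated response element (ISRE) in front of its target genes. Interferon gamma acts mainly through gamma-activated sites (GAS) and induces IRF1 and the guanylate-binding proteins. Macrophages both make and answer interferons, and the genes below are common readouts of that answer.

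The promoters of 25 of the 33 measured members could be matched in a RefSeq table that holds, for build GRCm38.p6, 250 bases before and 50 bases after each start site. Usp18, Dhx58, Zbp1, Oas2, Mx1, Mx2, Rtp4 and Parp14 were not matched. The ISRE core, spelled GAAANNGAAA and searched on both strands, stood in the promoter of 15 of these 25 members (60%), against 3.91% of the 14749 measured genes with a promoter and 3.44% of all 32851 promoters. GAS, spelled TTCNNNGAA, stood in 8 members (32%), against 9.06% of the measured genes and 8.3% of all promoters. The windows below show members that turn up repeatedly in the results: Isg15, Ifit1 and Rsad2, whose levels were highest in ATMs from obese mice of the 60% experiments, and Trim30a, Gbp2 and Irgm1, whose levels were mostly lower in ATMs from obese mice. Each is written 5′ to 3′ along the strand of the gene, and capitals mark the ISRE core on either strand.
Isg15 (chr4:156200845-156200926, minus strand, bases -108 to -27 from the start site): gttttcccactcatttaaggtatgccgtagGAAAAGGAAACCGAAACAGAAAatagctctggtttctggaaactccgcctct
Ifit1 (chr19:34640755-34640843, plus strand, bases -134 to -46 from the start site): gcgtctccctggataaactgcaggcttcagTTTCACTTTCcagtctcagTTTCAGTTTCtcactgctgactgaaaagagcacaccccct
Rsad2 (chr12:26456533-26456602, minus strand, bases -150 to -81 from the start site): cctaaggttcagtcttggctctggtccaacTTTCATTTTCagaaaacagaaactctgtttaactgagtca
Trim30a (chr7:104465194-104465259, minus strand, bases -66 to -1 from the start site): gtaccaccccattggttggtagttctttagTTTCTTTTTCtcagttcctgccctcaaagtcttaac
Gbp2 (chr3:142620574-142620643, plus strand, bases -89 to -20 from the start site): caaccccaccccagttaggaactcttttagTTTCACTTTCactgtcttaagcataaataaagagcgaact
Irgm1 (chr11:48871421-48871480, minus strand, bases -60 to -1 from the start site): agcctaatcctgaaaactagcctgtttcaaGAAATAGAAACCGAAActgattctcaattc
Isg15 held 3 overlapping ISRE cores in 1 run, Ifit1 2 separate ones and Irgm1 2 overlapping ones, and Trim30a held another core just after the start site, outside the window shown. Members with an ISRE core were found both among those higher and among those lower in ATMs from obese mice. A match is a description of these letters, and binding was not measured.

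The macrophage label was checked against 10 macrophage markers. The mean log2 level of the 10 lay between 9.75 and 10.32 on the 6 arrays of experiments 2, 3 and 4, and was 8.48 (HFD) and 7.14 (LFD) in experiment 1. Adgre1 itself had a log2 level of 8.58, 10.70, 10.67 and 10.19 in ATMs from obese mice of experiments 1 to 4 and of 6.54, 10.27, 10.95 and 9.95 in ATMs from lean mice. The 18 endothelial markers ran the other way, with a mean log2 level of 10.36 (HFD) and 10.71 (LFD) in experiment 1. Both arrays of experiment 1 therefore stand apart from the rest, and results that rest on them are given with and without them. In such bulk samples, fewer cells of a type and less RNA per cell cannot be told apart. The labels do not say how mice were assigned to the pools, and the p-values measure the spread between these pools.

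Across all 8 arrays no interferon response gene passed the test between the diets. In limma without a block, 0 of the 33 members passed an adjusted p of 0.05, as did 0% of all genes, and 0 members were past an unadjusted p of 0.05 in either direction, against 3.30% of all genes higher and 1.51% lower. The members' log2 differences, HFD minus LFD, ran from -0.72 (Gbp2) to 1.13 (Oasl1), with 15 above 0 and 18 below. The HFD and LFD arrays of every member overlapped, whereas over all genes every HFD array was above every LFD array for 1.19% and below for 0.680%. The median difference of the members was -0.10, beside 0.00 over all genes. The 2 arrays of an experiment tended to deviate in the same direction, and with the experiment as a replicate block 3 members were higher (9.09%, against 7.95% of all genes) and 5 lower (15.2%, against 4.16%) at an unadjusted p, while 0 passed the adjusted threshold, again as in 0% of all genes. The 3 higher members were Oasl1, Ifit1 and Isg15, and the 5 lower members were Irf9, Usp18, Isg20, Trim30a and Gbp2. Without experiment 1 and without the block, 7 members were higher (21.2%, against 6.26% of all genes), namely Oasl1, Ifit1, Ifit2, Ifit3, Isg15, Mx2 and Rsad2, and 1, Usp18, was lower (3.03%, against 2.66%). Leaving out only the HFD array of experiment 1 gave 6 higher members (18.2%, against 5.68% of all genes), and leaving out only the LFD array of experiment 4 gave 3 lower ones (9.09%, against 1.85%).

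Taken experiment by experiment, the members ran in opposite directions. In experiments 2 and 4 (60% fat), 25 and 21 of the 33 members were higher in ATMs from obese mice (75.8% and 63.6%), against 53.6% and 52.6% of all genes. In experiments 1 and 3 (45% fat), 7 and 6 members were higher (21.2% and 18.2%), against 45.8% and 43.1% of all genes. The median difference of the members was -0.37, 0.38, -0.33 and 0.21 on the log2 scale in experiments 1, 2, 3 and 4, while that of all genes stayed between -0.01 and 0.02. Of the 33 members, 3 were higher in all 4 experiments (9.09%, against 11.0% of all genes) and 3 lower in all 4 (9.09%, against 7.43%). The 3 higher ones were again Oasl1, Ifit1 and Isg15, and the 3 lower ones were Irf9, Usp18 and Trim30a.

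**Figure D1:**
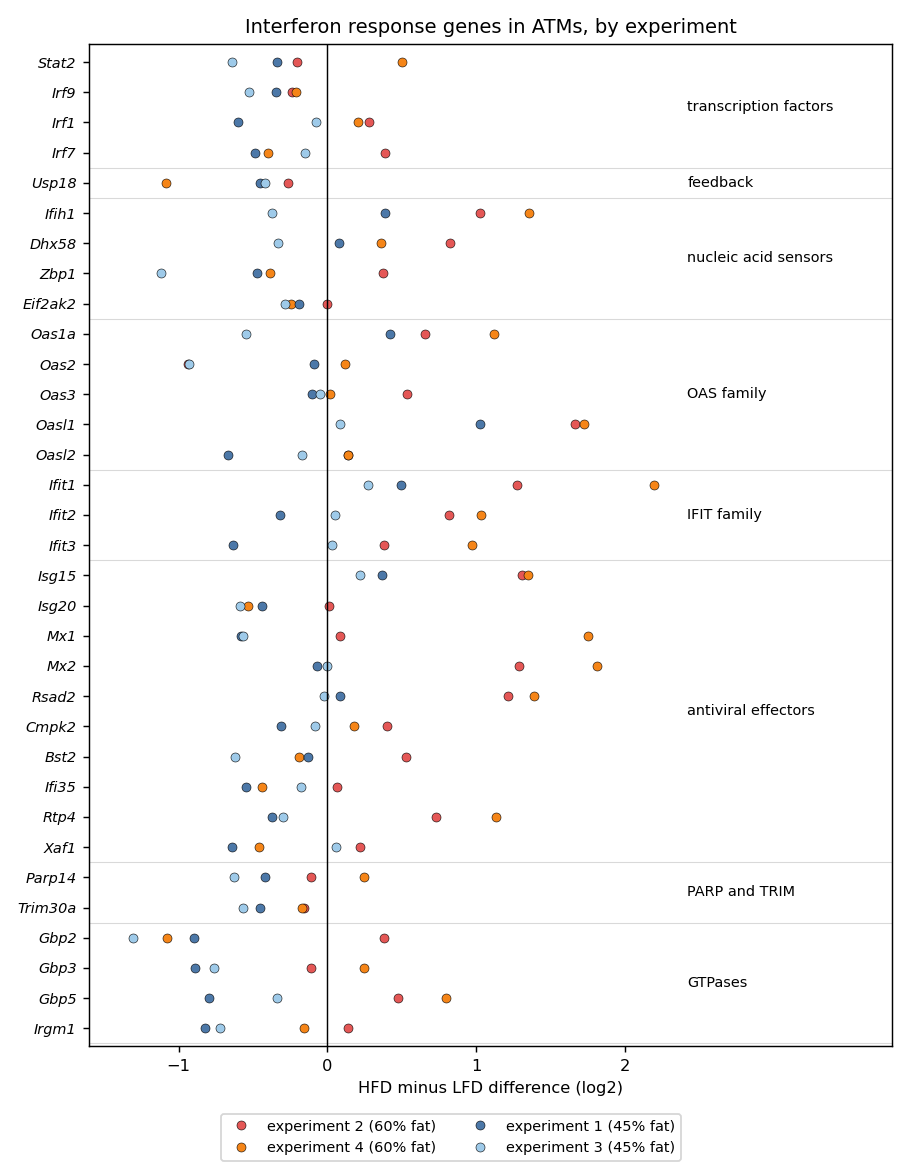
HFD minus LFD difference (log2, x axis) of each of the 33 measured interferon response genes (rows, grouped by role) in each of the 4 experiments. Points of experiments 2 and 4 (red and orange, 60% fat) lie to the right of those of experiments 1 and 3 (blue, 45% fat) in 24 of the 33 rows.

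Among the effectors, Isg15 encodes a ubiquitin-like protein that is conjugated to other proteins in the antiviral state. Its log2 level was 7.06, 8.41, 7.74 and 8.67 in ATMs from obese mice of experiments 1 to 4, against 6.69, 7.10, 7.52 and 7.32 in ATMs from lean mice. The HFD array was the higher one in every experiment, by 1.31 and 1.35 in the 60% experiments and by 0.37 and 0.22 in the 45% experiments, although the groups overlapped. Its difference over all arrays was 0.81 (SE 0.36), with the smallest unadjusted p of any member (0.0558, adjusted p = 0.982), and with the replicate block the unadjusted p was 0.0147 (adjusted p = 0.278).

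Rsad2 encodes viperin, an enzyme that makes a chain-terminating nucleotide against viral RNA synthesis. Its log2 level was 8.71, 10.23, 10.03 and 10.54 in ATMs from obese mice of experiments 1 to 4 and 8.62, 9.02, 10.06 and 9.15 in ATMs from lean mice. The diets differed by 1.21 and 1.39 in experiments 2 and 4 and by 0.09 and -0.03 in experiments 1 and 3. Mx2, an antiviral GTPase of the dynamin family, had log2 levels of 6.10, 7.41, 6.86 and 8.37 in ATMs from obese mice and 6.17, 6.13, 6.86 and 6.56 in ATMs from lean mice. Its HFD array was the higher one in experiments 2 and 4, by 1.29 and 1.81, and about level with the LFD array in the other two. Rtp4, a chaperone of receptor transport that is also interferon-induced, had log2 levels of 7.06, 8.67, 8.46 and 8.64 in ATMs from obese mice and 7.44, 7.94, 8.76 and 7.50 in ATMs from lean mice. The HFD array of Rtp4 was above the LFD array in experiments 2 and 4 (0.73 and 1.14) and below it in experiments 1 and 3 (-0.37 and -0.30). Across all arrays none of these 3 passed the threshold (log2 differences of 0.67 (SE 0.45), 0.76 (SE 0.45) and 0.30 (SE 0.44) for Rsad2, Mx2 and Rtp4).

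**Figure D2:**
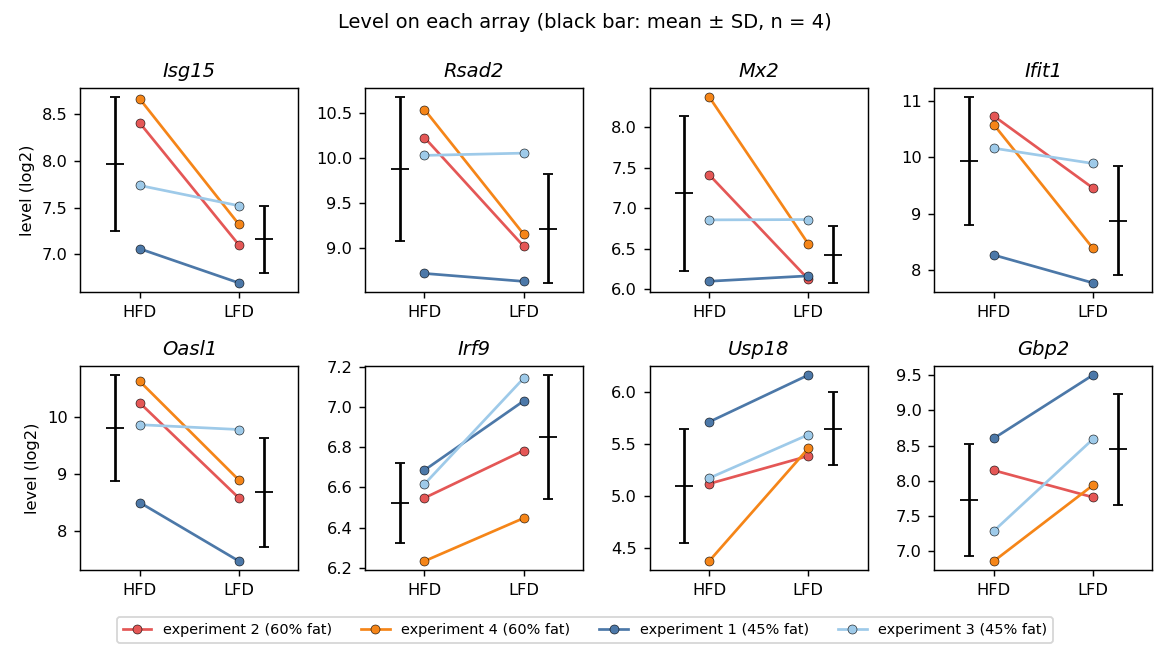
Log2 level (y axis) of 8 members on each array, with HFD on the left and LFD on the right and a line joining the 2 arrays of an experiment. Black bars give the mean ± SD of the 4 arrays of a diet; the HFD point lies above the LFD point in every experiment for Isg15, Ifit1 and Oasl1 and below it for Irf9 and Usp18, and the lines of Rsad2 and Mx2 are steep in the 60% experiments (1.21 to 1.81) and nearly flat in the 45% experiments.

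Of the remaining effectors, Isg20, a 3′ to 5′ exonuclease of RNA, had log2 levels of 7.06, 6.38, 6.38 and 6.34 in ATMs from obese mice, against 7.49, 6.37, 6.96 and 6.87 in ATMs from lean mice. It differed by -0.44, 0.01, -0.58 and -0.53 in experiments 1 to 4, a mean of -0.39 (SE 0.26). Mx1, the nuclear relative of Mx2, was under a log2 level of 4.32, the limit for a dim probe set, on 3 arrays, and its difference was -0.58, 0.08, -0.56 and 1.75 in experiments 1 to 4. Cmpk2, a mitochondrial nucleotide kinase that lies beside Rsad2, differed by -0.31, 0.40, -0.08 and 0.18. Bst2, which tethers budding virions, and Ifi35 and Xaf1, interferon-induced factors of signalling and cell death, differed by between -0.64 and 0.53 in any experiment. All 10 effectors were higher in ATMs from obese mice in experiment 2, against 2 of 10 in experiment 1, 2 in experiment 3 and 6 in experiment 4. Over all genes, 45.8%, 53.6%, 43.1% and 52.6% were higher in experiments 1 to 4.

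Ifit1 binds viral RNA whose cap lacks the methylation of the host's own, and Ifit2 and Ifit3 belong to the same family. Ifit1 had log2 levels of 8.27, 10.73, 10.16 and 10.58 in ATMs from obese mice of experiments 1 to 4, against 7.77, 9.46, 9.89 and 8.39 in ATMs from lean mice. It was higher in all 4 experiments, by 0.49, 1.28, 0.27 and 2.19, the last of these the largest difference of any member in any experiment. Over all arrays its difference was 1.06 (SE 0.66) without the block, with an unadjusted p of 0.0199 (adjusted p = 0.310) with the replicate block. Ifit2 differed by -0.32, 0.82, 0.05 and 1.03 and Ifit3 by -0.63, 0.38, 0.03 and 0.97 in experiments 1 to 4. The family as a whole thus differed most in experiment 4, where each of the 3 was at least 0.97 higher.

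Of the OAS family, whose enzymes make the 2′-5′ oligoadenylates that activate RNase L, Oasl1 moved most. Oasl1, an inactive relative that in mice binds the mRNA of Irf7, had log2 levels of 8.49, 10.24, 9.86 and 10.62 in ATMs from obese mice, against 7.47, 8.57, 9.77 and 8.89 in ATMs from lean mice. Its differences of 1.02, 1.66, 0.08 and 1.73 gave a mean of 1.13 (SE 0.59), with an unadjusted p of 0.0937 without the block and 0.00935 with it (adjusted p = 0.230). The other 4 did not follow it evenly. Oas1a differed by 0.42, 0.66, -0.54 and 1.12, Oas2 by -0.09, -0.94, -0.93 and 0.12, Oasl2 by -0.67, 0.14, -0.17 and 0.14, and Oas3, which was below a log2 level of 4.32 on 6 of the 8 arrays, by -0.10, 0.54, -0.05 and 0.02.

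Among the nucleic acid sensors, Ifih1 (MDA5) and Dhx58 (LGP2) recognise double-stranded RNA in the cytosol. Ifih1 differed by 0.39, 1.03, -0.37 and 1.35 in experiments 1 to 4, and Dhx58 by 0.08, 0.83, -0.33 and 0.36. Zbp1, a sensor of left-handed nucleic acid that triggers cell death, differed by -0.48, 0.38, -1.12 and -0.38, and the kinase Eif2ak2 (PKR), which stops translation on viral RNA, by -0.19, 0.00, -0.29 and -0.24. All 4 sensors were lower in ATMs from obese mice in experiment 3, where 43.1% of all genes were higher.

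Among the 4 transcription factors the median HFD minus LFD difference was -0.17, beside 0.11 among the 10 effectors. Irf9, the DNA-binding part of the ISGF3 complex, had log2 levels of 6.69, 6.55, 6.62 and 6.23 in ATMs from obese mice, against 7.03, 6.78, 7.14 and 6.45 in ATMs from lean mice. The HFD array was the lower one in each of the 4 experiments, with a difference of -0.33 (SE 0.17) and an unadjusted p of 0.0927 without the block and 0.0114 with it (adjusted p = 0.251). Stat2, another part of that complex, had log2 levels of 7.57, 7.12, 6.90 and 7.33 in ATMs from obese mice and 7.91, 7.33, 7.54 and 6.82 in ATMs from lean mice. Its difference of -0.17 (SE 0.24) was positive in experiment 4 alone. Irf7, the factor that amplifies the production of type I interferon, had log2 levels of 6.24, 6.74, 6.65 and 6.03 in ATMs from obese mice and 6.72, 6.35, 6.80 and 6.43 in ATMs from lean mice. Its difference was -0.16 (SE 0.19), with experiment 2 the one experiment where the HFD array was higher. Irf1 differed by -0.60, 0.28, -0.08 and 0.21 in experiments 1 to 4. Usp18, which removes ISG15 from proteins and blocks the type I receptor, had log2 levels of 5.71, 5.12, 5.17 and 4.38 in ATMs from obese mice, against 6.16, 5.39, 5.59 and 5.46 in ATMs from lean mice. It was lower in every experiment, most in experiment 4 (-1.08), and differed by -0.55 (SE 0.29) with an unadjusted p of 0.0119 with the replicate block (adjusted p = 0.254). In experiment 4, Usp18 was thus at its lowest on the HFD array while Isg15, Mx2, Mx1 and Rsad2 were at their highest there.

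Trim30a, a mouse TRIM protein of the E3 ligase family, had log2 levels of 8.43, 8.42, 8.41 and 8.12 in ATMs from obese mice, against 8.89, 8.57, 8.97 and 8.29 in ATMs from lean mice. Its difference of -0.34 (SE 0.16) was negative in all 4 experiments, with an unadjusted p of 0.0761 without the block and 0.0201 with it (adjusted p = 0.312). Parp14, an ADP-ribosyltransferase, differed by -0.42, -0.11, -0.63 and 0.24.

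The guanylate-binding proteins and the immunity-related GTPase Irgm1 take part in the defence against pathogens held in vacuoles and are induced most by interferon gamma. Gbp2 had log2 levels of 8.60, 8.15, 7.29 and 6.86 in ATMs from obese mice, against 9.50, 7.77, 8.59 and 7.94 in ATMs from lean mice. The HFD array was below the LFD array in experiments 1, 3 and 4 (-0.90, -1.30 and -1.08) and above it in experiment 2 (0.38). The mean difference was -0.72 (SE 0.50) with an unadjusted p of 0.0478 with the replicate block (adjusted p = 0.406). Gbp3 differed by -0.89, -0.11, -0.76 and 0.25, Gbp5 by -0.79, 0.48, -0.34 and 0.80, and Irgm1 by -0.82, 0.14, -0.72 and -0.16 in experiments 1 to 4. All 4 GTPases were lower in ATMs from obese mice in both 45% experiments, 1 and 3, where 45.8% and 43.1% of all genes were higher.

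The difference between the experiments was tested directly, as the diet effect at 60% fat minus that at 45% fat with experiment as a block. Of the 33 members, 14 were higher at an unadjusted p under 0.05 (42.4%), against 2.44% of all genes and 3.12% of the 10623 genes left without dim probe sets, and 0 were lower, against 1.51% of all genes. After adjustment 0 members passed, as did 0% of all genes (smallest adjusted p = 0.951). The estimate was above 0 for 32 of the 33 members (97%, against 59.5% of all genes), the exception being Usp18 (-0.24), with a median of 0.72 beside 0.06 over all genes. In 24 members (72.7%) the difference of both 60% experiments was larger than that of both 45% experiments, against 21.6% of all genes and 23.9% of those without dim probe sets, and the reverse held for 0 members and 11.7% of all genes. In 8 members (24.2%), Irf1, Oas3, Oasl2, Mx1, Mx2, Cmpk2, Rtp4 and Gbp5, both 60% experiments were above 0 and both 45% experiments below, against 6.03% of all genes, and the reverse held for 0 members and 2.23% of all genes. The smallest unadjusted p values in limma were those of Rsad2 (0.00111, difference 1.27, SE 0.17), Mx2 (0.00163, difference 1.58, SE 0.24), Isg15 (0.00220, difference 1.04, SE 0.17) and Rtp4 (0.00247, difference 1.27, SE 0.21), each with an adjusted p of 0.951. The other 10 were Ifih1, Dhx58, Oasl1, Ifit1, Ifit2, Ifit3, Parp14, Gbp3, Gbp5 and Irgm1. By role, the median of this difference was 1.06 for the IFIT genes, 0.83 for the GTPases, 0.79 for the effectors, 0.76 for the sensors, 0.56 for the OAS family, 0.47 for Parp14 and Trim30a, and 0.45 for the transcription factors. Without the block, 1 member, Ifit3, was higher at an unadjusted p (3.03%, against 0.898% of all genes). Each fat content has 2 experiments, so the comparison is of 2 differences with 2.

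**Figure D3:**
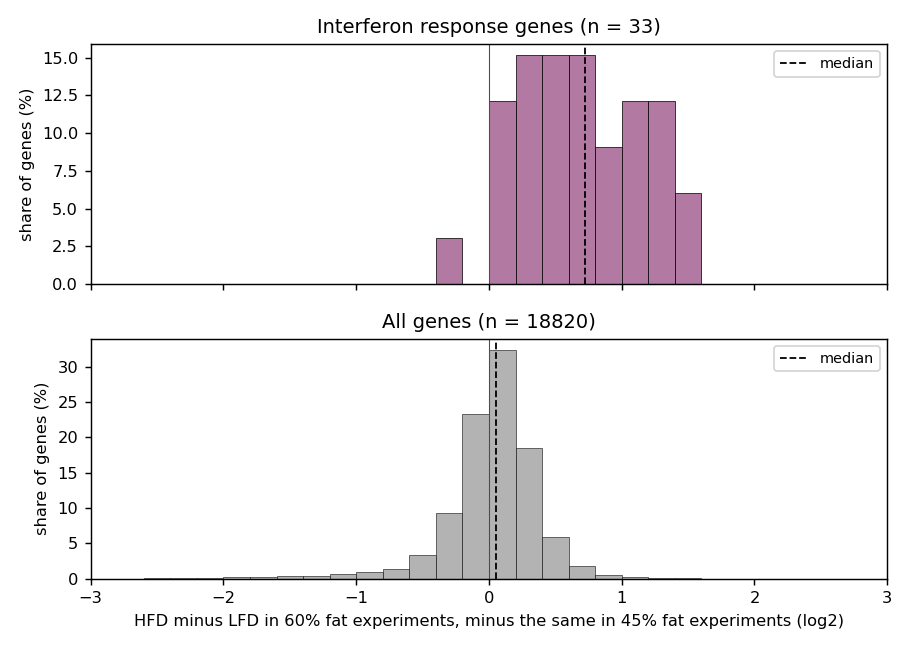
Share of genes (y axis, %) by the HFD minus LFD difference of the 60% fat experiments minus that of the 45% fat experiments (log2, x axis), for the 33 members (upper panel) and all 18820 genes (lower panel), with dashed medians. The members' median lies at 0.72 and that of all genes at 0.06, and 32 of the 33 members lie above 0.

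Within the fat contents taken alone, with 2 arrays of either diet, 11 members were higher in ATMs from obese mice of the 60% experiments at an unadjusted p (33.3%, against 6.49% of all genes) and 0 lower (against 4.20%). They were Ifih1, Dhx58, Oas1a, Oasl1, Ifit1, Ifit2, Ifit3, Isg15, Mx2, Rsad2 and Rtp4, with log2 differences from 0.60 (Dhx58) to 1.74 (Ifit1). In the 45% experiments, 0 members were higher (against 0.473% of all genes) and 3 were lower (9.09%, against 0.553%): Irf9 (-0.44), Parp14 (-0.52) and Trim30a (-0.51). None of these 14 passed an adjusted p of 0.05. The 11 genes named at 60% fat include none of the transcription factors, the GTPases or Usp18. Absence from the 11 does not mean a smaller difference. The GTPase Gbp5 (0.64) and the effector Mx1 (0.92) differed by more than Dhx58 in the 60% experiments without passing.

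The markers of other cell types moved with the experiments too. All 18 endothelial markers had a 60% minus 45% difference below 0, with a median of -2.13, opposite in sign to 32 of the 33 members. Over all genes 59.5% were above 0. The 45% experiments did not agree: the mean endothelial HFD minus LFD difference was -0.35, -0.81, 1.99 and -1.62 in experiments 1 to 4. It was above 0 in experiment 3 alone, and experiment 1 shared the sign of the 60% experiments. Pecam1, an adhesion protein of endothelial cells, had log2 levels of 11.10, 8.71, 8.78 and 8.32 in ATMs from obese mice and 11.35, 9.44, 6.74 and 9.95 in ATMs from lean mice, and Cdh5, the cadherin of endothelial junctions, 11.88, 9.45, 9.72 and 9.11 in ATMs from obese mice and 12.08, 10.41, 7.20 and 10.85 in ATMs from lean mice. The mean log2 level of the 18 ranged from 7.56 to 10.36 on HFD arrays and from 5.89 to 10.71 on LFD arrays, and the LFD array of experiment 3 was the lowest. Of the 10 macrophage markers, 9 had a 60% minus 45% difference below 0 (median -0.51), with means of 8.48 to 10.03 on HFD and 7.14 to 10.32 on LFD arrays. Their mean HFD minus LFD difference was 1.34, 0.01, -0.30 and 0.01 in experiments 1 to 4. The sign thus rested on experiment 1, as in experiment 3 the mean difference was below that of both 60% experiments. The mean of the 4 monocyte markers was 4.94 to 5.41 on HFD and 3.89 to 6.16 on LFD arrays, and the 4 did not run together. Ccr2 was highest on the LFD array of experiment 3 (9.16) and Chil3 on that of experiment 4 (5.47), whereas in every experiment the HFD array was the higher one for F10 and the lower one for Plac8 (log2 differences of 1.46 and -0.55). Siglech, a surface protein of plasmacytoid dendritic cells, which are strong producers of type I interferon, was at log2 levels of 4.09, 4.63, 4.16 and 4.84 in ATMs from obese mice, against 4.68, 7.30, 6.36 and 6.26 in ATMs from lean mice. Its HFD array was the lower one in every experiment (-1.72, SE 0.51, unadjusted p = 0.0103, adjusted p = 0.982). The other 5 plasmacytoid markers differed by between -0.21 (Ly6d) and 0.09 (Pacsin1), and the mean of the 6, which was 4.77 to 5.04 on HFD and 5.02 to 5.45 on LFD arrays with 2 of the 6 dim on all arrays, differed mostly through Siglech. Ncr1, a receptor of natural killer cells, stayed at or below 2.70 on HFD arrays and 3.70 on LFD arrays, and 8 of the 11 markers of natural killer and T cells were dim on all arrays. Cd4, the co-receptor of helper T cells, was dim on none, with log2 levels of 4.39, 5.61, 5.55 and 5.64 in ATMs from obese mice, against 4.94, 7.47, 6.18 and 6.77 in ATMs from lean mice. It was lower in ATMs from obese mice in every experiment (-1.04, SE 0.55, unadjusted p = 0.0950, and 0.00507 with the replicate block, adjusted p = 0.197). The 60% minus 45% difference of Cd4 was -0.91 (SE 0.29, unadjusted p = 0.0298). Other T cell markers did not follow Cd4: Cd3e, Cd3d and Cd8a differed between the diets by -0.14, 0.06 and 0.05. Of these, Cd3d and Cd8a were dim on all 8 arrays and Cd3e on 2. The part of these cells in the members' levels was not tested.

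The arrays of experiment 1 also differed from the rest in the members' levels, the IFIT genes and the GTPases in opposite directions and the effectors in both. On these 2 arrays the IFIT genes lay below the mean of the other 6 arrays (Ifit1 by -1.85, Ifit2 by -1.42 and Ifit3 by -0.34 on the log2 scale), as did Oasl1 (-1.67), Ifih1 (-1.30), Oas1a (-1.29), Mx1 (-1.29) and Rsad2 (-1.17). The GTPases lay above it, by 1.29 (Gbp2), 1.04 (Gbp5), 0.77 (Gbp3) and 0.59 (Irgm1), as did Irf1 (1.05), Xaf1 (0.97), Ifi35 (0.77) and Usp18 (0.75). The same 2 arrays had the lowest levels of Adgre1 and the highest means of the endothelial markers, and the part of these cells in the members' levels was not tested. Without experiment 1, the 60% minus 45% difference was higher at an unadjusted p in 12 members (36.4%, against 3.95% of all genes) and lower in 0 (against 4.54%), and its median was 0.79.

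**Figure D4:**
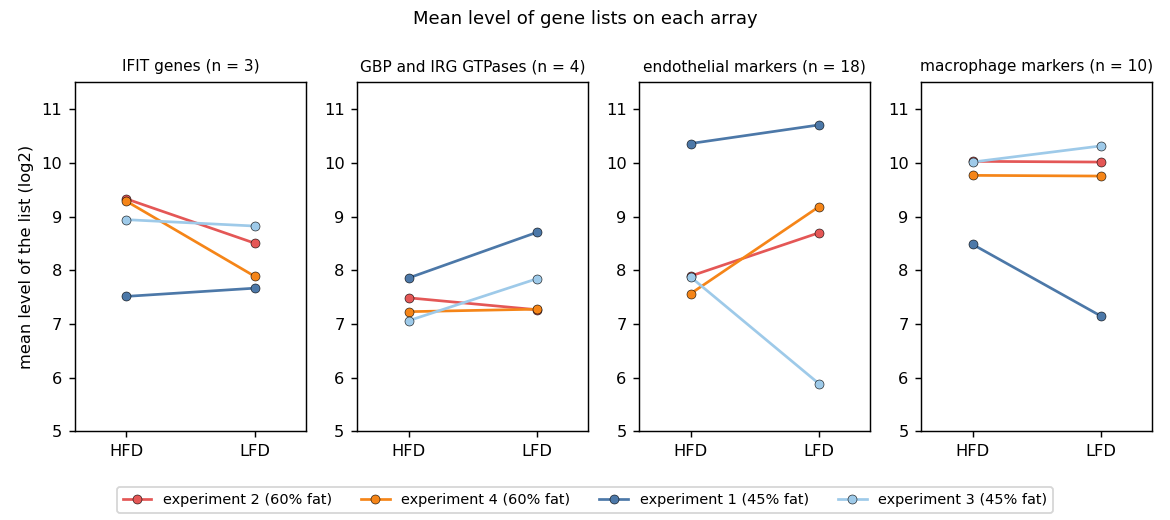
Mean log2 level (y axis) of the 3 IFIT genes, the 4 GTPases, the 18 endothelial markers and the 10 macrophage markers on each array, HFD on the left and LFD on the right, with lines joining the arrays of an experiment. Experiment 1 (dark blue) had the lowest macrophage and the highest endothelial and GTPase means, and the LFD array of experiment 3 had the lowest endothelial mean (5.89).

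A wider list of 102 genes of the interferon pathway, none of them among the members, held 85 that were measured. Of these, 0 passed the adjusted threshold, as did 0% of all genes. At an unadjusted p without the block, 1 was higher (1.18%, against 3.30% of all genes) and 2 were lower (2.35%, against 1.51%). With the replicate block, 6 were higher (7.06%, against 7.95% of all genes) and 18 lower (21.2%, against 4.16%). The median difference of the 85 was -0.14, and 20 (23.5%) were lower in all 4 experiments, against 7.43% of all genes. Those lower with the block included the transmembrane restriction factors Ifitm1, Ifitm2 and Ifitm3, the GTPases Gbp4, Gbp7, Gbp8 and Iigp1, the immunoproteasome subunits Psmb8 and Psmb9, the DNA sensing adaptor Sting1 and the feedback inhibitor Socs3. Gbp8 had log2 levels of 4.85, 4.55, 3.96 and 4.15 in ATMs from obese mice, against 6.03, 4.85, 4.89 and 4.97 in ATMs from lean mice (-0.81, SE 0.31, unadjusted p = 0.0330). Psmb8 had log2 levels of 8.44, 8.40, 8.34 and 7.94 in ATMs from obese mice, against 9.02, 8.56, 8.62 and 8.46 in ATMs from lean mice, and its groups did not overlap (-0.38, SE 0.16, unadjusted p = 0.0448). Every HFD array was below every LFD array in 2 of the 85 (2.35%), against 0.680% of all genes.

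Trim25, the ligase that activates RIG-I, was the pathway gene with the smallest unadjusted p without the block. It was the only 1 of the 85 with every HFD array above every LFD array (1.18%, against 1.19% of all genes). Its log2 level was 8.66, 8.97, 8.60 and 9.28 in ATMs from obese mice, against 8.51, 7.69, 8.48 and 8.34 in ATMs from lean mice. The difference was 0.62 (SE 0.23, unadjusted p = 0.0258, adjusted p = 0.982). For the receptor chains, the log2 level of Ifnar1 was 7.72, 8.28, 8.56 and 8.23 in ATMs from obese mice and 7.77, 8.45, 8.54 and 8.29 in ATMs from lean mice, and that of Ifnar2 was 9.17, 9.21, 9.22 and 9.05 in ATMs from obese mice and 9.36, 9.19, 9.48 and 9.17 in ATMs from lean mice. Their log2 differences were -0.07 (SE 0.22) and -0.14 (SE 0.09).

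The pathway genes shared part of the split between the experiments. In the 60% minus 45% comparison, 15 of the 85 were higher at an unadjusted p (17.6%, against 2.44% of all genes) and 0 lower (against 1.51%). The estimate was above 0 for 64 (75.3%, against 59.5% of all genes). Among the 15 were the ligand Ifnb1, the chemokines Ccl5 and Cxcl10, Cd274 (PD-L1), the DNA sensor Cgas, the adaptor Ticam1 (TRIF) and Trim25. The 15 also held the ligand Ifne and the receptor chain Ifnlr1, both dim on all 8 arrays. The ligands Ifng, Ifnk and Ifna4, not among the 15, were dim on all 8 arrays as well. Ifnb1, 1 of the type I interferons, had log2 levels of 6.84, 9.68, 9.05 and 9.22 in ATMs from obese mice and 7.03, 9.26, 9.37 and 9.09 in ATMs from lean mice. Its difference was 0.42 and 0.13 in experiments 2 and 4 and -0.19 and -0.32 in experiments 1 and 3, a 60% minus 45% difference of 0.53 (SE 0.19, unadjusted p = 0.0430). Ccl5, a chemokine for T cells and monocytes, had the largest such difference of the list (1.92, SE 0.40, unadjusted p = 0.00611).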

How the data were processed

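ATMs from obese (HFD) and lean (LFD) mice were measured on 8 Affymetrix whole-transcript arrays, 4 per diet. The values the authors deposited are log2, and the submitters' processing notes name RMA, which corrects the background, quantile normalises and summarises probe sets, with no version given. Quantile normalisation gives all arrays 1 distribution and hides shifts of all genes. Array medians were 4.25 to 4.39. Precision is limited by the number of arrays.

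Values were used as deposited. Of 35556 features, 21218 had 1 symbol in the annotation table and gave 18820 genes, with the brightest probe set standing for its gene. The 1881 features with several symbols and the 12457 without annotation were left out. HFD and LFD arrays were compared with limma 3.58.1 (lmFit and eBayes, R 4.3.3) without a block, as the study's methods mention no pairing, with Benjamini-Hochberg adjustment over all genes and a threshold of 0.05. The experiment number in the labels pairs the arrays. Both arrays of an experiment deviated in common from the diet means (r of 0.889, 0.357, 0.652 and 0.186 over genes, which are not independent replicates). Those means include experiment 1, whose arrays stood apart in both diets. The r values of the other experiments are therefore partly built in and do not test the pairing. The 60% minus 45% difference was an interaction term with experiment as a block. Probe sets under a log2 level of 4.32 were called dim. Symbols of the 33 members were matched to RefSeq by Entrez ID.

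The members, lists and tests were chosen with earlier results of these data known. Values on all arrays are given for the 5 members of smallest unadjusted p in each direction, the 4 of smallest p in the interaction, and Irf7, Stat2, Irf9 and Isg15, and for up to 3 pathway genes in each direction by p, with Ifnar1 and Ifnar2. The array values of Ifnb1 and the description of Ccl5, Cd4 and the other markers and pathway genes named are additions to this rule, made after seeing their values. The alternatives tried were a fixed or random block, leaving out arrays or experiments, each fat content alone, dim probe sets left out, arrays centred on their medians, the mean of probe sets, an intensity trend and the methods' t-test. The ESM on the array analysis was not used here.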

Additional observations from a re-analysis of the deposited data

Results flagged for a closer look

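In 9 of 66 groups of 4 arrays (a member in a diet), 1 array lay far from the other 3, a spacing that chance gives in about 1 of 20 independent groups. These groups share the same 8 arrays and are not independent, and the share over all genes was not taken. The count is therefore a description and cannot be read against that rate. On HFD arrays, experiment 1 was the lowest for Oas2 (6.50, others 7.07 to 7.16), Ifit2 (7.05, others 8.86 to 9.11) and Rtp4 (7.06, others 8.46 to 8.67) and the highest for Isg20 (7.06, others 6.34 to 6.38), and experiment 4 was the lowest for Eif2ak2 (6.58, others 7.12 to 7.20) and Trim30a (8.12, others 8.41 to 8.43). On LFD arrays, experiment 1 was the highest for Irf1 (10.56, others 8.99 to 9.26) and Ifi35 (7.04, others 6.03 to 6.11), and experiment 3 was the highest for Zbp1 (7.26, others 5.82 to 5.92). In 6 of these 9 groups the array set apart was of experiment 1, the experiment with the lowest macrophage and highest endothelial markers. The part of those cells was not tested.

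In 8 members (24.2%, against 6.03% of all genes) both 60% fat experiments moved up and both 45% fat experiments moved down. Their 60% minus 45% differences on the log2 scale were 0.58 (Irf1), 0.35 (Oas3), 0.56 (Oasl2), 1.49 (Mx1), 1.58 (Mx2), 0.49 (Cmpk2), 1.27 (Rtp4) and 1.20 (Gbp5). In limma's test of that difference, Mx2, Rtp4 and Gbp5 had an unadjusted p under 0.05 (0.00163, 0.00247 and 0.00561), and 0 passed after adjustment. In the same test 2.44% of all genes were higher at an unadjusted p under 0.05, and 0% passed after adjustment. The pattern of signs itself was not tested.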

How the results depend on the processing

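No member passed an adjusted p of 0.05 under any alternative run, and the smallest adjusted p of a member was 0.230, with the replicate block. The counts at an unadjusted p, 0 higher and 0 lower over all arrays, did change. Members higher numbered 3 with the replicate block (9.09%, against 7.95% of all genes), 2 with it as a random term (6.06%, against 7.24%), 11 in the 60% fat experiments only (33.3%, against 6.49%), 7 without experiment 1 (21.2%, against 6.26%) and 6 without it with the block (18.2%, against 7.15%). Members lower numbered 5 with the replicate block (15.2%, against 4.16% of all genes), 3 with it as a random term (9.09%, against 4.04%), 3 in the 45% fat experiments only (against 0.553%), 3 without experiment 4 (against 1.21%), 1 without experiment 1 (3.03%, against 2.66%), 2 without it with the block (6.06%, against 3.27%), and 1 with arrays centred on their medians (against 2.14%). Leaving out 1 array gave 0 to 6 higher and 0 to 3 lower; the 6 arose without the HFD array of experiment 1 (against 5.68% of all genes) and the 3 without the LFD array of experiment 4 (against 1.85%). The count of 14 members with a higher diet effect at 60% fat was 1 without the replicate block (against 0.898% of all genes). Without any 1 experiment, 1 of the fat contents keeps a single experiment, so only medians are given. The members' median 60% minus 45% difference was then 0.55 to 0.79, beside 0.03 to 0.08 over all genes. Leaving out experiments 2 and 3 was added after seeing the data. Mx2 and Rtp4 reversed to -0.0350 and -0.33 in the 45% experiments only, and Stat2 to 0.15 in the 60% experiments only; leaving out 1 array gave Stat2 -0.36 to 0.000409, the last without the LFD array of experiment 1. The cause was not tested, and fits that leave out arrays also rest on fewer of them.

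Centring arrays on their medians moved the median 60% minus 45% difference of all genes to 0.17 (members 0.84), with 787 genes higher and 232 lower at an unadjusted p, against 459 and 284 as deposited. In the diet comparison it gave 312 higher and 402 lower genes, against 621 and 284. Over the alternatives, all genes gave 89 to 1497 higher and 104 to 791 lower. Of the 20 members without a named test, 1 value moved by more than 1 SD and 438 did not. The blocks, the intensity trend and the t-test leave the difference itself unchanged by construction. The count is therefore no measure of stability. The number of arrays, 4 per diet, limits the precision.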
